A study of Homo sapiens with 16 samples.

Results

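The response to doxycycline was compared between a U2OS cell line that carries an inducible transgene and the parental line that lacks it, over all 16 libraries of the series. U2OS is a human osteosarcoma line, and U2OS-TR is a derivative that expresses the tetracycline repressor. The transgene encodes ΔN-RNMT, an inactive form of the cap methyltransferase RNMT with a mutated S-adenosylmethionine binding site. It is kept in the cytoplasm by loss of the N-terminal nuclear localization sequences and an added nuclear export signal. The transgene sits behind a CMV promoter with a tetracycline operator, and the line that carries it was grown from 1 clone. The 4 groups were U2OS-TR/ΔN-RNMT cells without induction (5 libraries) and with doxycycline (5 libraries), and parental U2OS-TR cells without doxycycline (3 libraries) and with doxycycline (3 libraries). Cells were grown for 48 h and then treated for 24 h. The labels list doxycycline at 1 μg/ml for every library, the untreated ones included, so treatment was taken from the sample names. The quantity described throughout is a difference of changes, that is the log2 change of induced over uninduced cells of the transgene line minus the log2 change of treated over untreated parental cells. All 16 of the 16 samples and all 60107 Ensembl gene rows entered it.

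RNMT adds the methyl group that completes the mRNA cap. Most capping takes place in the nucleus, and a cytoplasmic complex that contains RNMT can restore caps on mRNAs that have lost them. mRNAs that begin with a 5′ terminal oligopyrimidine tract (TOP), a C followed by an unbroken run of pyrimidines, encode ribosomal proteins and other parts of the translation machinery and are controlled together through mTOR and the cap-binding protein LARP1. ATXN2L is an RNA-binding paralog of ataxin-2 found in stress granules. Doxycycline itself can slow mitochondrial protein synthesis in mammalian cells, which is why a parental line treated in the same way is a useful control.

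The libraries were 3′ tag counts (QuantSeq REV) of cytoplasmic RNA, with 12527183 to 23251834 gene counts per library for the transgene line and 1473286 to 3214808 in the parental line. The parental libraries were sequenced elsewhere, on another Illumina instrument with longer reads. The line, the site, the instrument, the read length and the depth therefore cannot be told apart, and only the change within each line was compared. Reads outside annotated features were 0.0744 to 0.106 per gene count with the transgene and 1.11 to 1.5 without it. Of 14 osteosarcoma line markers, VIM, SPARC, CD44, CDH2 and COL1A1 had counts in all 16 libraries, whereas the bone matrix gene BGLAP and the osteoblast factor SP7 had none. COL1A2 had counts in 2 libraries and IBSP in 1. None of 8 blood cell markers reached the level needed for testing, although CD68 had counts in all 16 libraries. Markers of other cell types were present, with 4 of 8 epithelial and 4 of 6 neural ones tested. EPCAM, KRT8, KRT18 and CLDN4 and the neural RBFOX3, OLIG2, SYT1 and TUBB3 had counts in all 16, KRT18 at 127 to 573 CPM. Some libraries stood apart from their groups. On the first principal component of the transgene line, which held 79.6% of its variance, the uninduced libraries lay at -95.0, -67.9, -55.6 and -41.7 except replicate 5 at 31.9, and the induced libraries lay at 53.2 to 65.9 except replicate 2 at -11.9. RNMT counts followed the labels in both of these libraries (114 CPM in uninduced replicate 5 and 386 CPM in induced replicate 2). In the parental line the first component did not follow treatment, with untreated replicate 1 at -83.7 and treated replicate 3 at -58.3. The study describes the transgene line libraries as biological replicates and the parental ones as separate cultures, and p-values measure the spread between these samples of 1 clone and its parent.

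RNMT is the gene the transgene was made from, and its counts bear on whether the labels hold. RNMT is encoded on chromosome 18 (GRCh38, chr18:13726660-13764556, plus strand, 12 exons in the canonical transcript). In CPM, counts scaled to library totals with TMM factors, the 5 uninduced libraries held 75.3, 64.4, 72.8, 83.4 and 114, and the 5 induced libraries held 276, 386, 263, 465 and 375. The untreated parental libraries held 76.9, 108 and 62.6, and the treated ones held 59.1, 83.6 and 53.5. Every induced library was above every uninduced one, while the parental groups overlapped. The log2 change was 2.11 ± 0.24 (SE) with the transgene and -0.33 ± 0.31 in the parental line, and their difference was 2.43 ± 0.39 (adjusted p = 0.0258). These counts do not separate transgene from endogenous RNMT mRNA, and the gene overlaps FAM210A on the opposite strand. Over 16 fits that each left out 1 library the difference stayed between 2.31 and 2.77, but it was called in 7 of them and missed the threshold in the other 9. Among the 9 cap methyltransferases and capping factors tested RNMT was the member called (11.1%, against 2.98% of all genes). Of 21 decapping and cap surveillance genes edgeR called 0, with 1 at an unadjusted p under 0.05, DESeq2 0 and limma-voom 6. Over all genes edgeR called 365 of 12265 and limma-voom 4731, DESeq2 called 1478 of 12255, and 3197 had an unadjusted p under 0.05.

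ATXN2L (chr16:28822999-28837237, plus strand, 22 exons) had the largest difference among the genes named by the level rule. Uninduced libraries held 2.60, 2.44, 2.97, 2.33 and 3.38 CPM, and induced libraries held 59.1, 3.98, 49.7, 16.6 and 57.3 CPM. The groups did not overlap, although induced replicate 2 lay just above the uninduced libraries. Untreated parental libraries held 29.2, 5.28 and 1.28 CPM, from 55, 10 and 5 counts, and treated ones held 0.626, 0.736 and 5.43 CPM, from 2, 2 and 7 counts. The parental groups overlapped, and their difference rests on very few counts, most of them in untreated replicate 1. The log2 change was 3.76 ± 0.72 with the transgene and -2.72 ± 1.19 in the parental line (adjusted p = 0.42 in the latter). The difference was 6.48 ± 1.36 (adjusted p = 0.0372). Without untreated parental replicate 1 it was 4.71 with an adjusted p of 0.134. Of 15 ATXN2 family and stress granule genes, edgeR called ATXN2L (6.67%, against 2.98% of all genes). At an unadjusted p under 0.05 there were 5, and DESeq2 called 4 and limma-voom 5. Over all genes those counts were 3197, 1478 and 4731, of 12265 genes (12255 for DESeq2).

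**Figure D1:**
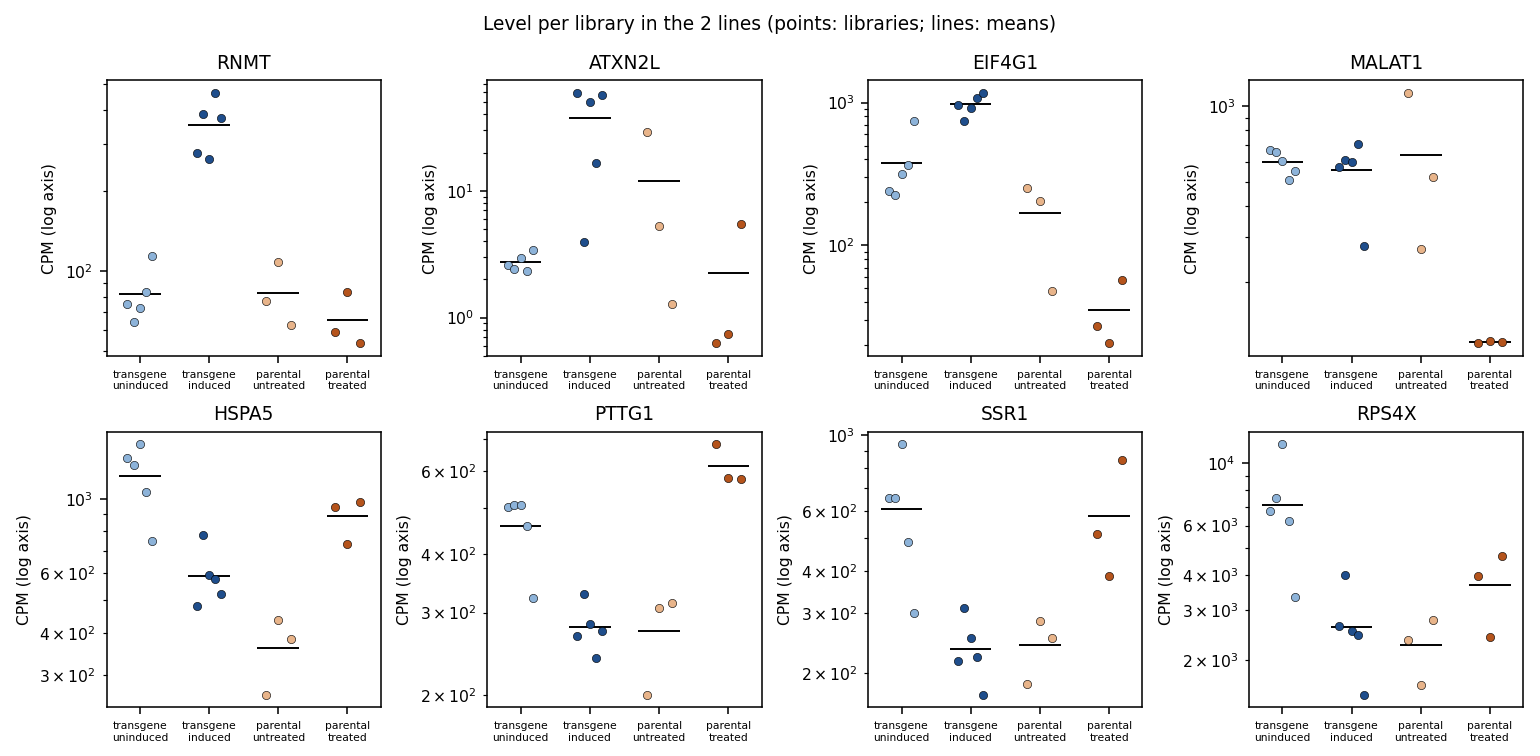
Level of 8 genes in each library, in CPM on log axes. Points are libraries, grouped by line and treatment (5, 5, 3 and 3), and horizontal lines are group means. RNMT and ATXN2L were higher in every induced than in every uninduced library, and EIF4G1 had a higher mean in induced cells. HSPA5, PTTG1, SSR1 and RPS4X had lower means in induced cells and higher means in treated parental cells. MALAT1 lay at 113 to 116 CPM in treated parental cells against 269 to 1131 in untreated ones.

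Across the 12265 genes tested, 365 (2.98%) had a called difference between the lines at an adjusted p under 0.05 by edgeR's quasi-likelihood test. The change was more upward with the transgene for 95 genes (0.775%) and more downward for 270 genes (2.2%). Within the lines, each tested inside a fit of all 16 libraries, 2844 genes (23.2%) passed the same threshold with the transgene. In the parental line 0 (0%) passed, 1382 had an unadjusted p under 0.05, and DESeq2 called 119 and limma-voom 112. These fits share the spread of both lines, whose coefficients of variation alone were 0.317 with the transgene and 0.46 in the parental line. The study reported a significant decline with doxycycline in parental cells for only a single non-coding RNA. Among the 365 called genes, 363 changed in opposite directions in the lines, and all 270 of the lower ones went down with induction and up in treated parental cells. For comparison, 52.5% of all tested genes had opposite signs. Such a gene reaches a large difference more readily, since the parental term is subtracted. The larger of both changes was the parental one for 175 of the 365 and that of the transgene line for 190. The groups did not overlap in either line, and stood in opposite order, for 98 genes (0.799% of those tested), of which 61 were called. Across genes, the changes in the lines had a Pearson r of -0.10 and a Spearman rho of -0.098, given as a description only.

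**Figure D2:**
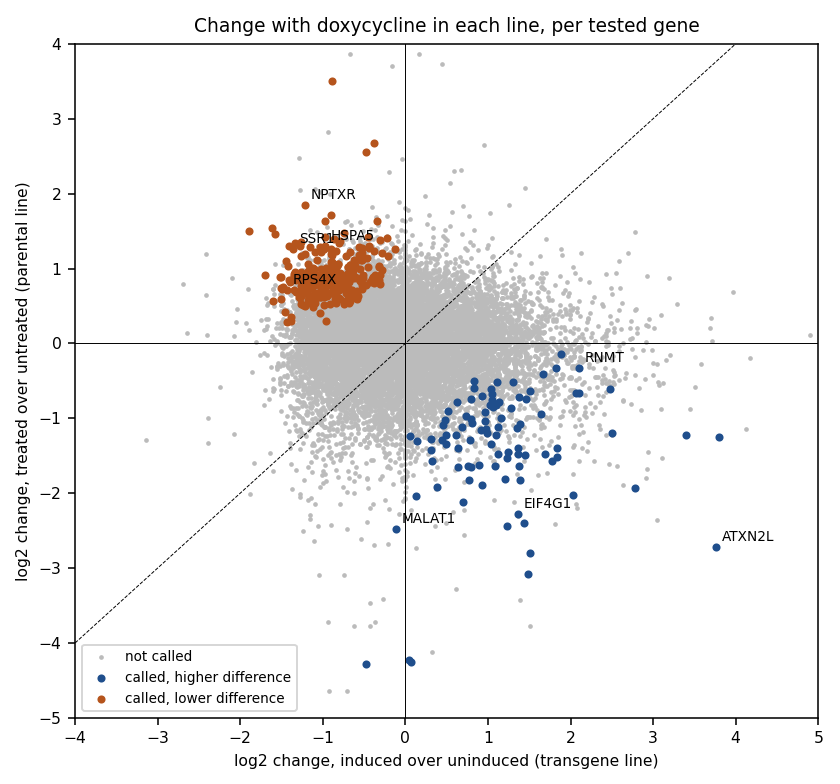
Log2 change with doxycycline in the transgene line (x axis) against the parental line (y axis), 1 point per tested gene. Outside the axes were 8 genes, 2 of them called. The dashed line marks equal changes. The 270 genes called lower belong to the upper left, down with induction and up in treated parental cells. Of the 95 called higher, 93 belong to the lower right. These numbers include the called genes outside the axes.

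The calls stood close to the threshold, with a lowest adjusted p of 0.0258, shared by 6 genes. Leaving out any 1 of 9 libraries left 0 genes called. These were uninduced replicates 1, 2 and 4, induced replicates 1, 3, 4 and 5, untreated parental replicate 1 and treated parental replicate 1, and in those fits 2375 to 2901 genes had an unadjusted p under 0.05. Without uninduced replicate 3, treated parental replicate 3 and untreated parental replicate 2 the count was 6, 24 and 121. It rose to 671 without untreated parental replicate 3, to 1170 without induced replicate 2, to 1647 without treated parental replicate 2 and to 2285 without uninduced replicate 5. Without both of the transgene line libraries that stood apart it was 3063, a setting chosen after seeing the data, and those included all 365. The direction of the split also depended on the scaling. With library totals in place of TMM factors, 462 genes were called higher and 44 lower, and the median difference over all genes moved from -0.09 to 0.49. With each line scaled and fitted alone, 374 were higher and 224 lower. No gene named here, RNMT and ATXN2L included, was called in those 9 fits. Counts of list members below are edgeR's, set against all genes without matching for level, and DESeq2 called at least as many in each list.

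**Figure D3:**
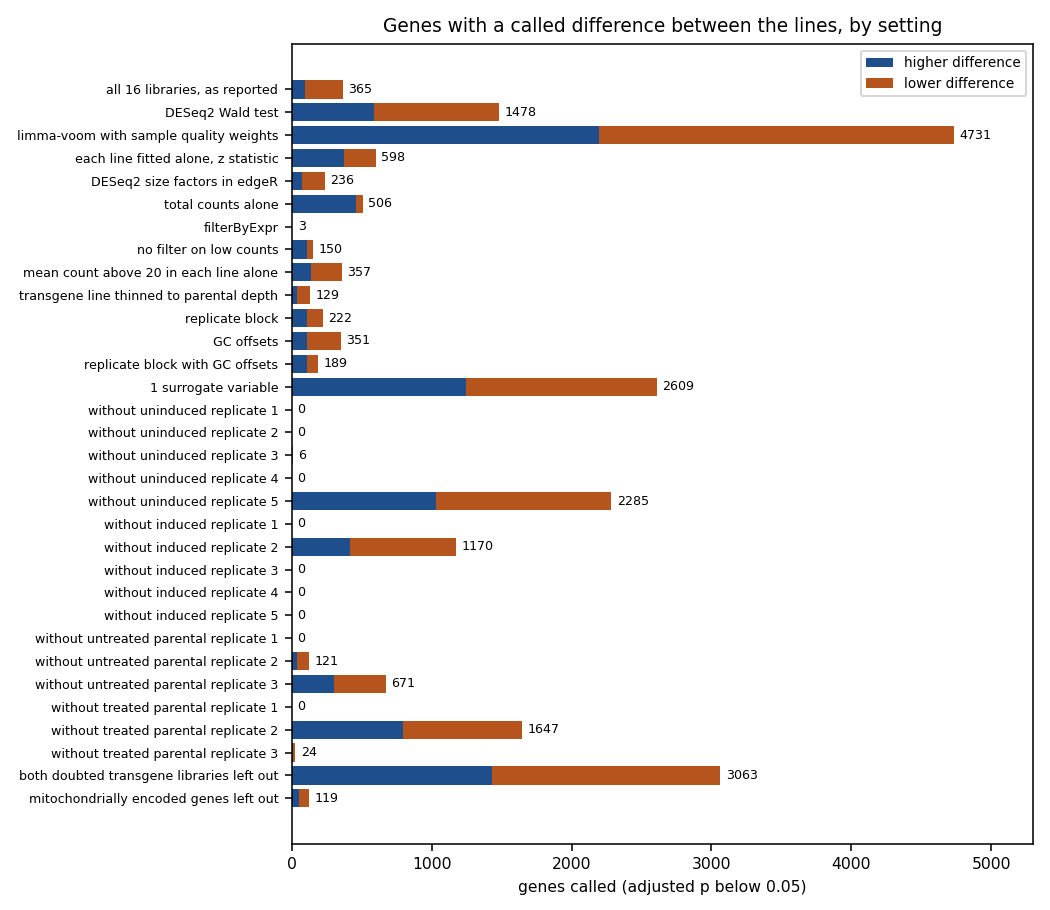
Genes with a called difference between the lines (x axis, bar length, blue for higher and orange for lower) under each setting (y axis). The count was 365 with all libraries and the reported settings, 0 in 9 of the 16 fits that left out 1 library, and 4731 with limma-voom and sample quality weights.

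Among ribosomal protein genes, those called were lower with induction and higher in treated parental cells. Of 83 tested, 7 were called lower (8.43%, against 2.2% of all genes) and 0 higher, and 63 had a negative difference. Their median log2 change was -0.44 with the transgene and 0.43 in the parental line, and their median difference lay 0.65 below that of all genes on the log2 scale (median -0.75). The 7 were RPS2, RPL12, RPL41, RPS27A, RPSA, RPS3A and RPS4X. Subunits of EIF3, the initiation factor that joins the small ribosomal subunit to mRNA, were represented by EIF3D and EIF3K. These were 2 of 11 tested (18.2%, against 2.2% of all genes). The list as a whole had 6 members with a negative and 5 with a positive difference, with a median of -0.27. Both groups contain mRNAs with TOP starts, so the first 20 bases from a RefSeq start site (GRCh38.p14) are given for the called members. Only a single start was used for each gene. RPS2 had no entry in the table. Capitals mark an opening C with at least 4 further pyrimidines.
EIF3D, chr22:36529147-36529166, minus strand: CTCTTTTCCTggtttctcaa
EIF3K, chr19:38619188-38619207, plus strand: CTCTTCCTgttcccgtcctt
RPL12, chr9:127451387-127451406, minus strand: CCTCTCggctttcggctcgg
RPL41, chr12:56116633-56116652, plus strand: CTCTCggccttagcgccatt
RPS3A, chr4:151099628-151099647, plus strand: CCCTTTTggctctctgacca
RPSA, chr3:39406720-39406739, plus strand: CTTTTCCgtgctacctgcag
RPS27A, chr2:55231903-55231922, plus strand: aagacccagactcttcccta
RPS4X, chrX:72277229-72277248, minus strand: aatttctacgcgcaccggaa

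Of these 8, 6 open with such a run at the annotated start that was used. RPS27A and RPS4X do not, which says only that these letters are not at that start. The study counted RPS4X among TOP mRNAs and found its capped end at the RefSeq 5′ end of the mRNA. Whether that end is the start used here was not tested. Read on the strand of the gene, the run was found in 5.6% of the 9354 tested genes with a promoter entry, in 65.7% of 67 ribosomal protein genes, in 8.76% of 217 genes called lower and in 1.35% of 74 called higher. The median log2 difference was -0.24 for the 524 genes with the run and -0.07 for those without it.

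RPS4X, a small-subunit protein, illustrates the pattern and its spread. Uninduced libraries held 6779, 7519, 11665, 6232 and 3353 CPM, and induced libraries held 2644, 4009, 2542, 2448 and 1504 CPM. Untreated parental libraries held 2348, 1635 and 2776 CPM, and treated ones 3979, 2413 and 4674 CPM. The groups overlapped in both lines, because of uninduced replicate 5 and induced replicate 2 in the transgene line. The change was -1.44 ± 0.33 in the transgene line (adjusted p = 0.023) and 0.71 ± 0.42 in the parental line (adjusted p = 0.54), a difference of -2.15 ± 0.54 (adjusted p = 0.045). EIF3D ranged from 923 to 1973 CPM uninduced, 615 to 1262 induced, 406 to 473 in untreated parental and 545 to 1050 in treated parental cells. Its difference was -1.91 ± 0.44 on the log2 scale (adjusted p = 0.0408), and the parental groups did not overlap. EIF3K gave -1.99 ± 0.46 (adjusted p = 0.0408), from -1.08 with the transgene and 0.91 in the parental line. RPL12 gave -1.67 ± 0.41, RPL41 -2.27 ± 0.55, RPS27A, a ubiquitin fusion, -2.62 ± 0.64 and RPS2 -1.25 ± 0.30. RPS3 (-1.32 ± 0.51, adjusted p = 0.121) and RPL8 (-1.0 ± 0.47, adjusted p = 0.189) were not called, and neither was the elongation factor subunit EEF1D (-1.51 ± 0.67, adjusted p = 0.167). The parental changes of these 3 were 0.21, 0.00 and 0.27. Ribosomal protein genes have many processed pseudogenes (50 annotated for RPL12, 25 for RPS2, 23 for RPS4X), and counting between them and the parent gene may be uncertain. Library shares are given beside these values. Ribosomal protein genes made up 23.8 to 25.0% of gene counts uninduced, 18.4 to 22.8% induced, 7.15 to 13.4% in untreated parental and 12.7 to 16.6% in treated parental libraries. The part of library composition in these differences was not tested.

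The list of TOP mRNAs that the study described as lower was chosen on the transgene line libraries, so its direction there is not independent evidence. All 115 tested members fell in that line, and the difference of changes contains that fall. The share called and the median difference of this list are therefore not independent evidence either. Of 115 tested members, 24 were called lower between the lines (20.9%, against 2.2% of all genes) and 0 higher, with median changes of -1.09 with the transgene and 0.38 in the parental line. The parental libraries played no part in that choice. In them 89 of 115 members were higher with doxycycline (77.4%, against 53.3% of all genes), 18 had an unadjusted p under 0.05 and 0 passed adjustment. Over all 12265 genes 1382 had such an unadjusted p. The members share the same libraries and are not replicates. The list held 8.05, 8.43 and 7.29% of gene counts in untreated parental libraries and 9.43, 6.80 and 14.8% in treated ones. Treated replicate 2 thus lay below every untreated library, and treated replicate 3 was the highest. The parental groups stood apart upward for 8 members, or 6.96%, against 6.2% of all genes tested. Among the members called outside translation were PTTG1, NDUFA6, NDUFB9, PSMD8 and SF3B5. ATF4, the transcription factor of the integrated stress response, was not called (-1.87 ± 0.60, adjusted p = 0.0775), and XRCC6, a DNA end-binding subunit that the study followed, gave -2.02 ± 0.63 (adjusted p = 0.0697). The actin gene ACTB gave -1.50 ± 0.54 (adjusted p = 0.0992), nearly all of it from the transgene line, where the change was -1.41 against 0.09 in the parental line.

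Genes of the mitochondrial translation and respiratory machinery followed the same order of medians. Of 78 mitochondrial ribosomal protein genes, 5 were called lower (6.41%, against 2.2% of all genes) and 0 higher, with medians of -0.29 and 0.31 in the transgene and parental lines. MRPL43 gave a difference of -1.54 ± 0.32 (adjusted p = 0.0372), with groups apart in both lines. Uninduced libraries held 151 to 270 CPM and induced ones 113 to 146 CPM, whereas untreated parental libraries held 66.3 to 96.6 CPM and treated ones 124 to 155 CPM. MRPS17 gave -1.28 ± 0.28. Of 77 nuclear-encoded oxidative phosphorylation genes, 5 were called lower (6.49%, against 2.2% of all genes) and 0 higher, with medians of -0.20 and 0.53. COX7C, a subunit of cytochrome c oxidase, held 168, 271 and 254 CPM in untreated parental cells and 575, 489 and 487 CPM in treated ones. Its change was 1.16 ± 0.24 there (adjusted p = 0.17) and -0.20 ± 0.19 in the transgene line, so that most of its difference of -1.37 ± 0.31 lay in the parental line. The complex I genes NDUFB9 (-1.51 ± 0.35) and NDUFA6 (-1.57 ± 0.37) were also called. As shares of gene counts, mitochondrial ribosomal proteins were 0.776 to 0.873% uninduced and 0.799 to 0.984% induced. In parental libraries they were 0.577 to 0.760% untreated and 0.637 to 0.748% treated. Oxidative phosphorylation genes were 1.93 to 2.74% uninduced and 2.29 to 2.58% induced, against 1.20 to 1.99% untreated and 1.90 to 2.24% treated. These shares showed no clear fall with induction. Of the 13 mitochondrially encoded genes edgeR called 0, with 6 at an unadjusted p under 0.05, DESeq2 1 and limma-voom 9, and their median difference was -1.19. MT-ATP6 had -1.90 ± 0.60 (adjusted p = 0.0772). Mitochondrial counts made up 1.76 to 9.38% of untreated parental and 3.68 to 5.39% of treated parental libraries, against 0.854 to 1.52% in the transgene line. With the mitochondrially encoded genes left out, a setting chosen after seeing the data, 119 genes were called in all. Of 18 glycolysis genes edgeR called 0, with 8 at an unadjusted p under 0.05, DESeq2 3 and limma-voom 10, and their median was -1.09. Over all genes 3197 of 12265 had such an unadjusted p, DESeq2 called 1478 of 12255 and limma-voom 4731 of 12265.

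HSPA5, the chaperone BiP of the endoplasmic reticulum, was among the 6 genes of lowest adjusted p. Uninduced libraries held 1319, 1257, 1451, 1049 and 751 CPM, and induced ones held 480, 779, 595, 579 and 523 CPM. Untreated parental libraries held 262, 435 and 384 CPM, and treated ones held 946, 735 and 979 CPM. In the parental line the groups did not overlap, and in the transgene line they met at uninduced replicate 5 and induced replicate 2. The change was -0.98 ± 0.23 with the transgene and 1.30 ± 0.30 in the parental line, a difference of -2.28 ± 0.38 (adjusted p = 0.0258). It was the 1 member that edgeR called among 62 tested heat shock proteins and chaperonins (1.61%, below the 2.98% of all genes). In that list DESeq2 called 10 and limma-voom 31, against 1478 of 12255 and 4731 of 12265 over all genes. SSR1, a subunit of the translocon-associated protein complex, gave -2.62 ± 0.48 (adjusted p = 0.0372), from 300 to 942 CPM uninduced, 173 to 312 induced, 186 to 286 in untreated parental and 385 to 845 in treated parental cells. ASNS, the asparagine synthetase gene induced by ATF4, gave -2.07 ± 0.54 and was the 1 member called of 26 integrated and mitochondrial stress response genes (3.85%, against 2.98% of all genes). CDKN1A, which encodes the cell cycle inhibitor p21, gave -1.77 ± 0.45. It was the 1 called of 16 p53 targets (6.25%, against 2.98% of all genes).

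PTTG1 encodes securin, which restrains the separation of sister chromatids until anaphase, and it was among the genes with an adjusted p of 0.029. Uninduced libraries held 501, 507, 506, 458 and 322 CPM, induced ones 267, 329, 284, 240 and 274, untreated parental ones 201, 307 and 314, and treated parental ones 683, 578 and 578. Uninduced replicate 5 was the only uninduced library within the range of the induced ones, and the parental groups stood apart. The difference was -1.88 ± 0.32. SNRPN, which shares its locus with SNURF, rested more on the parental line, with 38.2, 75.0 and 74.1 CPM untreated and 177, 174 and 171 CPM treated, and its difference was -2.22 ± 0.38 (adjusted p = 0.029). Of 32 S and G2/M phase genes, CCNE1 (-1.39 ± 0.37) and MCM3 (-1.26 ± 0.33) were called lower (6.25%, against 2.2% of all genes). Of 34 core spliceosome genes, SNRPN, SF3B5 (-2.03 ± 0.50) and SNRPA were called lower (8.82%, against the same 2.2%). SF3B5 held 855 to 920 CPM in untreated parental libraries and 1293, 851 and 2684 CPM in treated ones, so those groups overlapped. The proteasome list had members on both sides, with PSMD8 at -2.00 ± 0.50 and PSMB7 lower and PSMD11 at 3.23 ± 0.78, 3 of 36 tested (8.33%, against 2.98% of all genes). Of 113 membrane traffic genes 4 were called lower (3.54%, against 2.2% of all genes), among them the GTPases RAB6A (-1.47 ± 0.32) and RAB5C (-2.39 ± 0.54). The polyadenylation factor CPSF6 gave -1.27 ± 0.33, and the antiviral gene OAS3 gave -1.50 ± 0.34.

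**Figure D4:**
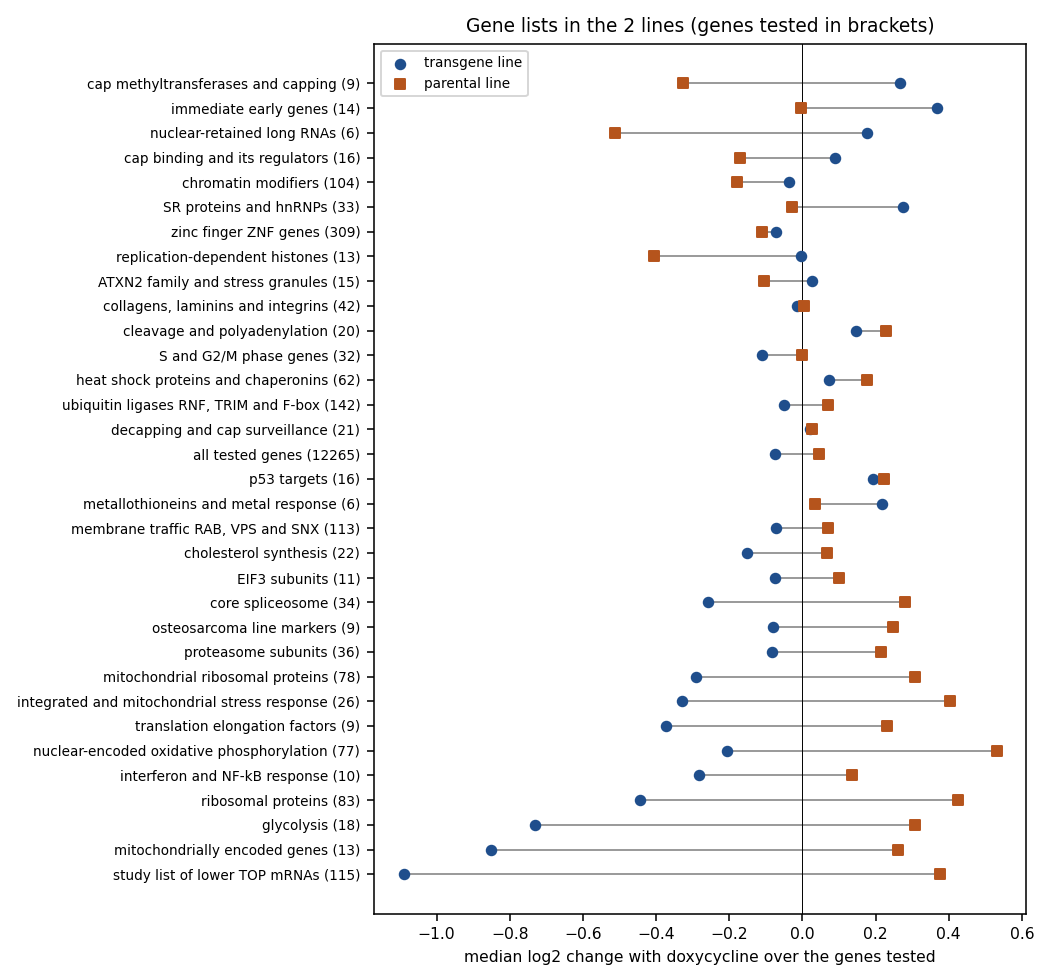
Median log2 change with doxycycline (x axis) over the tested members of each gene list with at least 6 tested genes (y axis, tested genes in brackets), with circles for the transgene line and squares for the parental line. The study's TOP list, which was chosen on the transgene line, had medians of -1.09 and 0.38. Ribosomal proteins had -0.44 and 0.43, against -0.08 and 0.05 for all tested genes.

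List medians carry the scaling of the libraries with them. With library totals in place of TMM factors the median of all genes rose by 0.58 on the log2 scale and the sign of the median difference changed for 18 of 34 lists. Ribosomal proteins kept a negative median (-0.14), whereas mitochondrial ribosomal proteins (0.11), oxidative phosphorylation genes (0.01) and EIF3 subunits (0.34) turned positive. Relative to the median of all genes, ribosomal proteins lay at -0.65 with TMM factors and -0.63 with library totals. The TOP list, which was chosen on the transgene line, lay at -1.39 and -1.27.

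Fewer genes had a difference in favour of the transgene line. EIF4G1, the scaffold of the cap-binding complex, held 242, 226, 317, 366 and 743 CPM uninduced and 962, 739, 925, 1077 and 1172 CPM induced. Untreated parental libraries held 251, 205 and 48.0 CPM, and treated ones held 27.2, 20.6 and 57.4 CPM. Groups overlapped in both lines through 1 library each, uninduced replicate 5 and untreated parental replicate 3. The change was 1.36 ± 0.41 with the transgene and -2.28 ± 0.56 in the parental line, and the difference was 3.64 ± 0.70 (adjusted p = 0.0372). It was the 1 member called among 16 cap-binding proteins and their regulators (6.25%, against 2.98% of all genes). CC2D1B (5.05 ± 1.28), the tweety family gene TTYH3 (3.70 ± 0.83), the actin regulator VASP (3.22 ± 0.84), PDZD8 (3.17 ± 0.73), the receptor gene TNFRSF12A (3.01 ± 0.64), the imprinted gene PEG3 (3.01 ± 0.64) and the splicing-related gene BUD13 (2.94 ± 0.75) completed the largest positive differences with PSMD11. For TTYH3 the libraries held 60.8, 58.6, 52.5, 68.7 and 231 CPM uninduced and 618, 82.9, 621, 510 and 832 CPM induced, so that uninduced replicate 5 and induced replicate 2 were again those that overlapped. Chromatin modifiers had 3 called of 104, all higher, and this share of 2.88% was about that of all genes (2.98% called, 0.775% higher). KDM1A, a lysine demethylase, gave 1.64 ± 0.33 with groups apart in both lines, and the acetyltransferase KAT6B gave 2.16 ± 0.48, almost all of it from the parental line. ZNF genes had 4 called of 309 (1.29%, below the 2.98% of all genes), 2 in each direction, with ZNF462 at 2.07 ± 0.40. The splicing factor SRSF4 gave 1.42 ± 0.37, and BHLHE40, a circadian repressor, gave 2.58 ± 0.49 at levels under 10 CPM.

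MALAT1, a long RNA retained in the nucleus, differed through the parental line. Untreated parental libraries held 1131, 269 and 523 CPM and treated ones held 113, 116 and 115 CPM, with groups apart. In the transgene line uninduced libraries held 507 to 670 CPM and induced ones 278 to 709 CPM. The parental change was -2.48 ± 0.43 (adjusted p = 0.12), that of the transgene line was -0.11 ± 0.31, and the difference was 2.37 ± 0.52 (adjusted p = 0.0405). Of 6 tested long RNAs listed as nuclear-retained MALAT1 was the 1 called (16.7%, against 2.98% of all genes). A positive difference was seen for 5, while 53.6% of all genes had a negative one. NORAD, among these 5, had a parental change of -0.02, and where the listed RNAs were located in these cells was not tested. The gene R3HDM2 behaved likewise, with 111, 35.9 and 37.3 CPM untreated against 16.3, 19.9 and 11.6 CPM treated in the parental line and a difference of 2.31 ± 0.48. Whether the amount of nuclear RNA in these cytoplasmic preparations moved with treatment was not tested. PABPN1, the nuclear poly(A)-binding protein (2.11 ± 0.63, adjusted p = 0.0644), and STRN4 (1.45 ± 0.43, adjusted p = 0.0642) were not called.

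The largest negative differences were in genes of varied function. NPTXR, the neuronal pentraxin receptor, held 77.9 to 117 CPM in 4 uninduced libraries and 45.5 in replicate 5, and 24.7 to 50.6 CPM induced. In the parental line it held 9.55, 21.6 and 21.7 CPM untreated and 52.9, 46.4 and 95.4 CPM treated. Its difference was -3.07 ± 0.51 (adjusted p = 0.0258), from -1.22 and 1.85. PTGES, a prostaglandin E synthase, gave -3.16 ± 0.67, the readthrough locus JMJD7-PLA2G4B -3.04 ± 0.61, the Mediator subunit MED24 -2.71 ± 0.53, the arginine sensor of mTORC1 CASTOR1 -2.68 ± 0.64, the tetraspanin CD81 -2.61 ± 0.59, COMMD1 -2.58 ± 0.55 and RDM1 -2.55 ± 0.51. MED24, JMJD7-PLA2G4B and RDM1 had groups apart in both lines. PTGES held 32.4, 50.7 and 37.3 CPM in untreated parental libraries and 72.0, 40.1 and 243 CPM in treated ones. CD81 held 183, 140 and 214 CPM in untreated and 286, 186 and 544 CPM in treated parental libraries. For PTGES and CD81 the parental groups overlapped, and treated replicate 3 was the highest parental library. VDAC3, a channel of the outer mitochondrial membrane, had a smaller difference of -1.16 ± 0.26 (adjusted p = 0.0408) with little spread. It held 178 to 199 CPM uninduced and 137 to 178 induced, and 103, 111 and 122 CPM in untreated against 225, 204 and 175 CPM in treated parental cells. JMJD7-PLA2G4B shares its transcripts with JMJD7 and PLA2G4B, so its counts may be uncertain.

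Called genes differed from the rest in base composition and length, and those called lower also in level. The median level was 91.1 CPM for the genes called lower, 17.1 for those called higher and 21.6 for all tested genes. The shares called in gene lists were set against all genes without matching for level, and the part of level in them was not tested. The median GC content of the canonical transcript was 52.8% for the genes called lower, 44.9% for those called higher and 48.4% for all tested genes, and the median transcript lengths were 2027, 4856 and 3173 bases. With the genes divided into 10 equal bins by GC content, the median change in the transgene line went from 0.36 in the lowest bin (27.8 to 38.4% GC) to -0.66 in the highest (61.7 to 76.0%), while the parental medians went from 0.06 to -0.10. With offsets that remove each library's trend with GC, 351 genes were called (110 higher and 241 lower), of which 268 were among the 365. The difference was then 2.22 for RNMT, -2.35 for HSPA5 and -3.01 for SSR1, all still called. Of the genes given with values, TTYH3 (3.75, adjusted p = 0.055), RPS2 (-0.89, 0.107), PSMD8 (-1.51, 0.0568), CCNE1 (-1.21, 0.0557), MCM3 (-1.07, 0.0597) and OAS3 (-1.21, 0.0528) lost their call with these offsets, and STRN4 (1.93, 0.0396) gained one.

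**Figure D5:**
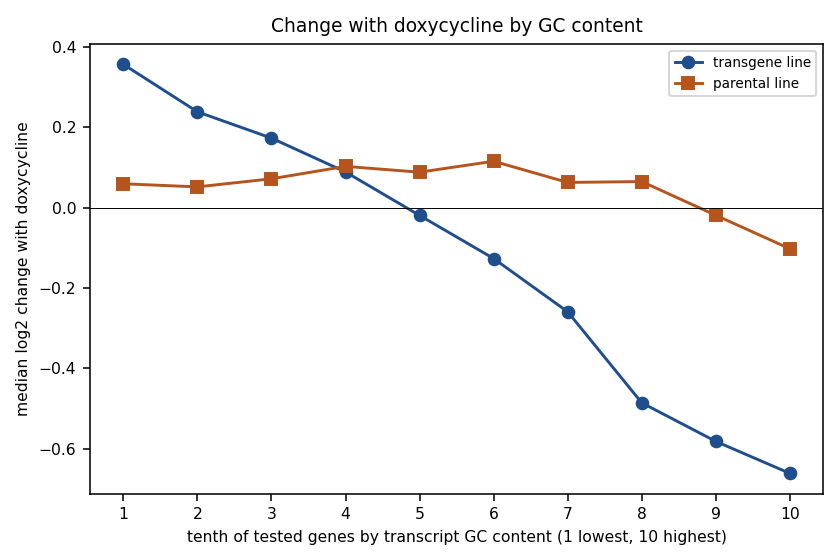
Median log2 change with doxycycline (y axis) in 10 equal bins of the tested genes by GC content of the canonical transcript (x axis), for the transgene line (circles) and the parental line (squares). The medians of the transgene line went from 0.36 to -0.66, and the parental line stayed between 0.12 and -0.10.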

How the data were processed

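The authors deposited 1 table of raw counts per sample, with a whole-number count for each Ensembl gene row, made per the labels from QuantSeq REV reads aligned to GRCh38 by the Lexogen pipeline. Aligner settings, annotation release, strand use and duplicate handling are not given in the sources used here. Gene names came from GENCODE 44, which named 56104 of 60107 rows, and the 92 spike-in and 5 summary rows were left out. Starting from these counts, genes with a mean normalized count above 20 over the 16 libraries (12265) were tested with edgeR 4.0.16 (quasi-likelihood F test, TMM factors, 4 group means, R 4.3.3), with the contrast (induced minus uninduced) minus (treated minus untreated parental), Benjamini-Hochberg adjustment over all tested genes and a threshold of 0.05. Alternatives used DESeq2 1.42.0, limma 3.58.1 and sva 3.50.0. The procedures were tested on simulated data. Totals of 1473286 to 3214808 gene counts, 3 libraries per group and a common coefficient of variation of 0.46 stood behind the parental changes, against 0.317 for the transgene line with 5 per group. The median SE of a log2 change was 0.41 and 0.29, and the parts of depth, number and spread in it were not separated.

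Genes named in the text are RNMT and ATXN2L, the genes whose level the study discussed, the 10 largest called differences in each direction with a mean of at least 10 CPM and at least 1 CPM in every group, up to 3 members of lowest p in each of 35 lists, and the 5 of lowest p within each line. RPSA and RPS3A were named after their values were seen, as called ribosomal protein genes. Members and lists were chosen with earlier results of these data known. Replicate numbers did not pair the samples as a set. Same-numbered deviations correlated at -0.39 to 0.65 (mean 0.02) in the transgene line, highest for replicate 2. In the parental line they correlated at -0.32 to 0.19 (mean -0.05). No library duplicated another. Alternatives included other scalings, filters, thinning, GC offsets, a replicate block, a surrogate variable and leaving out each library.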

Additional observations from a re-analysis of the deposited data

Results flagged for a closer look

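The change with doxycycline differed between the lines for 365 of 12265 genes, by the test of the difference itself. Among the genes named in the report, those with a higher change in the transgene line were, with their log2 differences, ATXN2L (6.48), CC2D1B (5.05), TTYH3 (3.70), EIF4G1 (3.64), PSMD11 (3.23), VASP (3.22), PDZD8 (3.17), TNFRSF12A (3.01), PEG3 (3.01), BUD13 (2.94), BHLHE40 (2.58), RNMT (2.43), MALAT1 (2.37), R3HDM2 (2.31), KAT6B (2.16), ZNF462 (2.07), KDM1A (1.64) and SRSF4 (1.42). The largest of the opposite kind were PTGES (-3.16), NPTXR (-3.07), JMJD7-PLA2G4B (-3.04), MED24 (-2.71), CASTOR1 (-2.68), SSR1 (-2.62), RPS27A (-2.62), CD81 (-2.61), COMMD1 (-2.58), RDM1 (-2.55), RAB5C (-2.39), HSPA5 (-2.28), RPL41 (-2.27), SNRPN (-2.22), RPS4X (-2.15), ASNS (-2.07) and SF3B5 (-2.03). Smaller ones were PSMD8 (-2.00), EIF3K (-1.99), EIF3D (-1.91), PTTG1 (-1.88), CDKN1A (-1.77), RPL12 (-1.67), NDUFA6 (-1.57), MRPL43 (-1.54), NDUFB9 (-1.51), OAS3 (-1.50), RAB6A (-1.47), CCNE1 (-1.39), COX7C (-1.37), MRPS17 (-1.28), CPSF6 (-1.27), MCM3 (-1.26), RPS2 (-1.25) and VDAC3 (-1.16). All of these were called in the fit of all 16 libraries and none in the 9 fits described above that left out 1 library.

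For single libraries, the gap between the farthest library and its neighbour was set against the range of its group of 5, for 62 of the genes named here in the uninduced and induced groups. Chance places about 1 in 20 independent groups past the critical value of 0.71, and 17 of 124 passed it. The 124 groups share the same 10 libraries, and many of the genes were chosen by their values in them. The count of 17 therefore cannot be judged by that rate. Parental groups were not looked at in this way. Uninduced replicate 5 was the high one for CC2D1B (0.8), TTYH3 (0.819) and PSMD11 (0.883) and the low one for EIF3D (0.778), PTTG1 (0.775), RAB6A (0.829) and CPSF6 (0.75). Induced replicate 2 was the high one for XRCC6 (0.768), COMMD1 (0.824), RDM1 (0.8) and RPL41 (0.73) and the low one for CC2D1B (0.838), TTYH3 (0.788) and TNFRSF12A (0.743). Induced replicate 5 was the high one for STRN4 (0.725) and the low one for MALAT1 (0.769). Uninduced replicate 3 was the high one for MRPS17 (0.783). The ratio of gap to range is given in brackets. Uninduced replicate 5 and induced replicate 2 account for 7 each, and RNMT had no such library in either group.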

How the results depend on the processing

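The number of genes called moved most. It was 1478 by DESeq2's Wald test, 4731 by limma-voom with sample quality weights, 598 with each line fitted alone, 236 with DESeq2 size factors, 3 after filterByExpr (16472 genes tested), 150 without a filter, 129 with the transgene line thinned to the parental depth and 2609 with 1 surrogate variable. Added after seeing the data, leaving out both doubted transgene libraries gave 3063 and leaving out mitochondrially encoded genes 119. Over the fits without 1 library it ran from 0 to 2285, RNMT from 2.31 to 2.77 and ATXN2L from 4.71 to 7.80. RNMT passed the threshold in 7 of 16 such fits and ATXN2L in 5. ATXN2L also missed it after filterByExpr (6.59). With a mean above 20 required in each line ATXN2L was not tested. The labels do not say whether same-numbered samples share more than a number. With a replicate block 222 genes were called (109 higher, 113 lower) and ATXN2L was at 5.58, and with the replicate block and GC offsets 189 were called and ATXN2L was at 5.95, neither past the threshold for ATXN2L, while RNMT was still called. The 62 genes followed through the alternatives kept their sign in all that tested them. PSMB7, SNRPA, RPSA and RPS3A were not among these 62. The cause of these movements was not tested, apart from the fewer libraries or other genes that a setting itself leaves. Depth limits low genes in the parental line, where ATXN2L rests on 2 to 55 counts per library.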
